A study of Mus musculus with 42 samples.

Results

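The SOCS and PIM genes of cytokine feedback were followed through bulk RNA-Seq of mouse uterine tissue-resident NK (trNK) cells. Their 7 members, Socs1, Socs2, Socs3, Cish, Pim1, Pim2 and Pim3, were taken from a list of direct STAT targets and feedback regulators, and all 7 were present among the 54353 genes that the 34 libraries shared. All libraries came from C57BL/6 mice with no engineered allele, in 4 experiments of 2 libraries per group. The gestation experiment held trNK cells, sorted as CD45+NK1.1+NKp46+CD49a+CXCR6-, of virgin mice and of mice at gestational day (gd) 6.5 and 8.5. The subset experiment held gd8.5 trNK cells from gates on CD55 and 4-1BB, named CB_low (both low), CB_int (intermediate) and CB_hi (both high). In the inhibitor culture, live NK1.1+ lymphocytes were kept for 3 days in 1 of 3 media: no IL-21, 20 ng/mL IL-21, or IL-21 plus Stattic, a small-molecule inhibitor of STAT3, at 1 µM by the labels (the methods print another unit). By the methods, the medium of the trNK cultures held 10 ng/mL of IL-15, to which IL-21 and Stattic were added. The labels of the inhibitor culture give no dose of IL-15. In the time course, cells were kept in IL-15, with or without 20 ng/mL IL-21, for 0, 6, 24 and 72 h. The labels give 10 ng/mL of IL-15 and the protocol text another dose, and a pair of 0 h libraries carries the IL-21 label. The methods give cultures of sorted trNK cells of virgin or gd6.5 mice, aged 8–12 weeks, and the account of the study gives the subset low for 4-1BB and CD55 from gd6.5 mice for both cultures, which then lack the cells outside that gate.

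SOCS proteins and CIS, the product of Cish, close a negative feedback loop. Cytokine receptors of the common gamma chain family, such as those of IL-15 and IL-21, activate JAK kinases, which phosphorylate STAT factors, and the STAT factors switch on SOCS genes whose products then block the JAKs or the receptor. PIM kinases are serine/threonine kinases without a regulatory subunit, so that their activity follows the amount of protein and thus transcription, and they promote survival, translation and cell cycle entry. In NK cells, IL-15 signals mainly through STAT5 and IL-21 mainly through STAT3, and CIS is known as a brake on IL-15 signalling.

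On GRCm38 (mm10), Socs1 (ENSMUSG00000038037) lies at chr16:10782240-10785536, Socs2 (ENSMUSG00000020027) at chr10:95385362-95417180 and Socs3 (ENSMUSG00000053113) at chr11:117966079-117970047, all on the minus strand. Cish (ENSMUSG00000032578) lies at chr9:107296026-107302784, Pim1 (ENSMUSG00000024014) at chr17:29490812-29496111, Pim2 (ENSMUSG00000031155) at chrX:7878262-7883432 and Pim3 (ENSMUSG00000035828) at chr15:88862186-88865726, all on the plus strand. Exonic bases of Cish overlap the antisense genes Gm17040 and Gm17041 over 740 bases, and those of Pim1 overlap the antisense gene Gm26885 over 468 bases. The strand setting of the counting is not given in the sources used here, so reads of these partners cannot be told apart.

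RefSeq promoters on GRCm38.p6, 250 bases before to 50 bases after the start site, were found for 6 of the 7 genes. They are shown 5′ to 3′ for Cish and Socs3, whose windows hold the STAT-type motif TTCNNNGAA, and for Socs1 and Pim2, which were lower together in the CB_hi gate. Capitals mark the matches to the motif, which is its own reverse complement.
Cish, chr9:107296409-107296708, plus strand: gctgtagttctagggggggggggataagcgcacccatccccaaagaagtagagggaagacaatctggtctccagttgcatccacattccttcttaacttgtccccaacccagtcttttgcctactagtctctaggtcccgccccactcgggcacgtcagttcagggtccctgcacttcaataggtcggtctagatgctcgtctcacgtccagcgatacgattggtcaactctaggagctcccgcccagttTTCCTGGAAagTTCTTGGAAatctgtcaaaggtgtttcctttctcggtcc
Socs3, chr11:117969317-117969616, minus strand: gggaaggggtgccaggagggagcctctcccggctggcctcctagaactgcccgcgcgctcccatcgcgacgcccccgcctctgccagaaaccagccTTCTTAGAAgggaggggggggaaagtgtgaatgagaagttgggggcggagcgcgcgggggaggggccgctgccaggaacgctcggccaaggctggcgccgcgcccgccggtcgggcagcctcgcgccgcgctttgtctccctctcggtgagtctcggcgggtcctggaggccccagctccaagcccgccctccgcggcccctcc
Socs1, chr16:10785487-10785786, minus strand: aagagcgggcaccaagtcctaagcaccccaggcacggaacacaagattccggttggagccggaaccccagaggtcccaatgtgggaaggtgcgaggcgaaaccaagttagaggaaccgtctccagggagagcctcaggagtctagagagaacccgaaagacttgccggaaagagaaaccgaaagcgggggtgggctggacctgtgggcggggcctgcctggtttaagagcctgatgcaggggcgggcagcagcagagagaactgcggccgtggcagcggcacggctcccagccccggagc
Pim2, chrX:7878056-7878355, plus strand: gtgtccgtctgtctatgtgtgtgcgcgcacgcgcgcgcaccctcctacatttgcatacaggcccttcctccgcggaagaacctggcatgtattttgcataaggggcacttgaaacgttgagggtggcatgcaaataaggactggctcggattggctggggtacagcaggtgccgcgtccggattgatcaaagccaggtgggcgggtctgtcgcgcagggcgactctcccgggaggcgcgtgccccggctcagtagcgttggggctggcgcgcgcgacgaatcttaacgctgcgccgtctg

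The Cish window held a pair of matches, TTCCTGGAA at the start site and TTCTTGGAA 11 bases downstream. The Socs3 window held TTCTTAGAA 154 bases before the start. No match was found in the windows of Socs1, Pim1, Pim2 and Pim3, which says only that these letters are not in these 300 bases. The motif was present in 2710 of 32544 mouse promoters of the same length (8.33%). The spacing TTCNNNNGAA, also its own reverse complement, was present in 6.98% of promoters and in no window of a member.

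The libraries held between 11862089 and 66468883 counts. Expression is given as RPKM, counts scaled to exon length and library size, so that levels of genes can be compared per length. In the main test, a gene needed an RPKM over 10 in both libraries of at least 1 group of the experiment, library sizes were scaled with TMM, and edgeR's quasi-likelihood test was used with Benjamini-Hochberg adjustment over all genes kept. A call needed both an adjusted p under 0.05 and more than a 2-fold difference. This filter kept 5 members in the gestation experiment, 6 in the subset experiment, 4 in the inhibitor culture and only Pim2 in the time course, whereas edgeR's own filter (filterByExpr), run as an alternative, kept all 7 everywhere. With 2 libraries per group, whose labels do not say that they came from separate mice or cultures, p-values measure the spread between these libraries, which may be technical. All 7 NK cell markers checked (Ncr1, Klrb1c, Eomes, Itga1, Nkg7, Tbx21 and Klrk1) were above 1 RPKM in both libraries of every gestation, subset and inhibitor culture group, and at least 6 of them were in each time course group.

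Under IL-21, Pim2 rose in the mean over the times of the time course, Socs1 was called higher at 72 h with filterByExpr, Pim1 and Socs3 were separated from their controls at 6 h without passing the test, and Cish, Pim3 and Socs2 showed no rise that passed it. Pim2, the PIM kinase tied to lymphocyte survival, was low at the start, with 9.08 and 8.43 RPKM at 0 h without IL-21 and 5.90 and 10.1 RPKM in the 0 h libraries labelled IL-21. At 6 h it stood at 23.6 and 9.12 RPKM without IL-21 and at 56.1 and 84.8 RPKM with it. At 24 h it stood at 12.0 and 13.7 RPKM without IL-21 and at 33.6 and 30.6 RPKM with it. Both IL-21 libraries lay above both control libraries at these times. At 72 h the values were 4.63 and 22.4 RPKM without IL-21 and 112 and 22.2 RPKM with it, and the groups overlapped, since the second library of each group was nearly alike.

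The log2 fold change of Pim2 was 2.09 ± 0.77 (SE, n = 2 per group) at 6 h, 1.22 ± 0.75 at 24 h and 2.03 ± 0.77 at 72 h, and none of these passed the edgeR quasi-likelihood test alone (adjusted p = 0.267, 0.521 and 0.124). DESeq2 called Pim2 at 72 h (1.99, adjusted p = 0.04097, and 0.0363 with filterByExpr). The 72 h value ran from 0.781, without the first 72 h IL-21 library, to 3.77 over its alternatives, and was called without the second library of the 72 h control (3.77, adjusted p = 0.0121) or of the 72 h IL-21 group (2.68, adjusted p = 0.03997). At those times 0.599%, 0.343% and 6.57% of the 3503 genes tested were called higher and 1.37%, 1.31% and 1.51% lower. Averaged over the 3 times, Pim2 rose by 1.78 ± 0.44 on the log2 scale (adjusted p = 0.0228 in edgeR), a contrast in which 3.80% of genes were called higher and 2.43% lower. The rise was 1.77 ± 0.42 with filterByExpr (adjusted p = 0.0412), where 2.20% of 14879 genes were called higher, and 1.68 without the 72 h libraries (adjusted p = 0.00136). A group that loses a library is left with 1, whose spread is then taken from the other groups, here and in every fit that leaves out a library. Leaving out 1 library kept the direction, with values of 1.36 to 2.36, and ended the call for 7 of the 16 libraries (adjusted p = 0.0526 to 0.0787): both of 24 h without IL-21, both of 24 h with IL-21, the second of 6 h in each arm, and the first of 72 h with IL-21. With filterByExpr the call was kept without 1 library for only 3 of 16, both 72 h libraries without IL-21 and the second with it, and the adjusted p reached 0.146. Other values moved with IL-21 at these times. The mitochondrial share of counts was 3.57% and 3.78% without against 2.54% and 1.904% with IL-21 at 6 h, and 4.77% and 4.58% against 2.28% and 2.80% at 24 h. A list of 12 stress and dissociation genes summed to 208 and 199 against 306 and 347 RPKM at 6 h, and to 118 and 138 against 238 and 214 RPKM at 24 h, with Fosb and Hspa1a at 0 in all of these groups. Most of each sum was the chaperone gene Hsp90aa1, at 160 and 177 against 266 and 287 RPKM at 6 h. At 24 h Hsp90aa1 had 105 and 116 against 207 and 191 RPKM. In each of these groups only 4 of the 12 genes exceeded 1 RPKM in both libraries. The 7 NK cell markers summed to 10370 and 10480 against 8640 and 7303 RPKM at 6 h, and to 12320 and 11750 against 8543 and 8793 RPKM at 24 h. Most of the sum at 6 h was Nkg7, at 8762 and 8899 against 7742 and 6404 RPKM. At 6 h Klrb1c had 319.5 and 337 against 115 and 117 RPKM, and Ncr1 979 and 896 against 454 and 489 RPKM. Eomes and Itga1 were also lower without overlap at 6 h, while the libraries of Klrk1 and Tbx21 overlapped. The part of all these values in the Pim2 result was not tested. At 0 h the fold change was −0.08 ± 0.74 (adjusted p = 1.00).

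**Figure D1:**
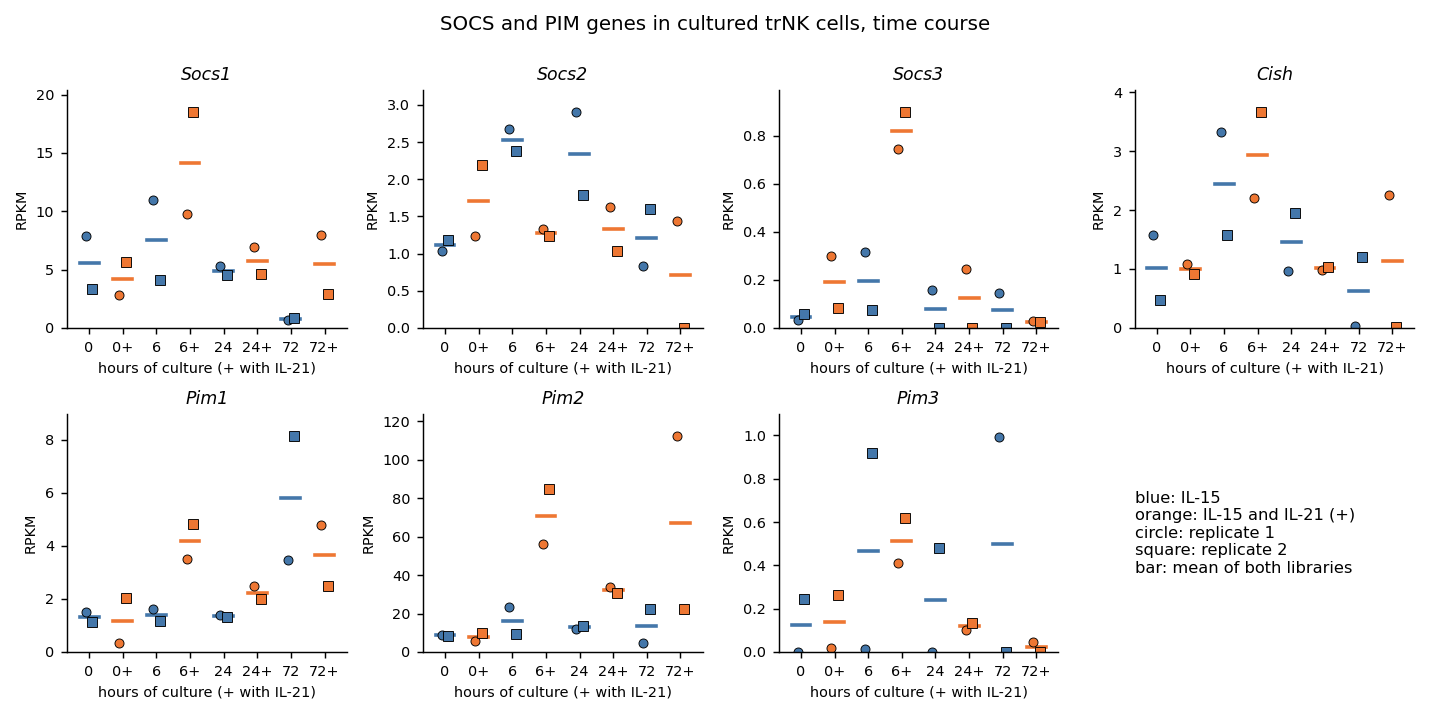
RPKM of the 7 genes by library against hours in culture, with IL-15 alone in blue and IL-15 plus IL-21 in orange; circles are first and squares second libraries, and bars are means. Both IL-21 libraries of Pim2 sit above both controls at 6 h (56.1 and 84.8 against 23.6 and 9.12) and 24 h, and at 72 h 1 control library (22.4) reaches the lower IL-21 library (22.2).

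Pim1, the family member first known as a proviral integration site, was near 1 RPKM at the start (1.52 and 1.12). At 6 h it stood at 1.62 and 1.16 RPKM without IL-21 and at 3.49 and 4.84 RPKM with it, and at 24 h at 1.38 and 1.34 against 2.49 and 1.98 RPKM. The groups did not overlap at either time. At 72 h the order was different, with 3.48 and 8.13 RPKM without IL-21 against 4.80 and 2.50 RPKM with it. By filterByExpr and edgeR's quasi-likelihood test the log2 differences were 1.58 ± 0.77 at 6 h and 0.61 ± 0.75 at 24 h, both with an adjusted p of 1.00. The control itself was higher at 72 h than at 24 h, by 2.41 ± 0.79 (adjusted p = 0.0919 in edgeR). The difference between the 72 h and 6 h effects of IL-21 on Pim1 was −2.46 ± 1.07 (adjusted p = 0.320 in edgeR) and was not shown. Pim3 was close to 0 throughout, at 0 to 0.995 RPKM, and its groups overlapped at 6, 24 and 72 h.

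Socs1, which binds and inhibits the JAK kinases directly, stood at 7.86 and 3.33 RPKM at 0 h. At 6 h it had 10.99 and 4.14 RPKM without IL-21 and 9.78 and 18.5 RPKM with it, and at 24 h 5.27 and 4.49 against 6.93 and 4.62 RPKM. These groups overlapped. At 72 h Socs1 had 0.710 and 0.826 RPKM without IL-21 and 7.99 and 2.88 RPKM with it, with no overlap. Its log2 difference at 72 h was 2.60 ± 0.65 with filterByExpr (adjusted p = 0.0415 in edgeR), in a comparison with 4.41% of genes called higher. In the same fit the control fell by 2.38 on the log2 scale between 24 h and 72 h (SE 0.64, adjusted p = 0.0433 in edgeR), where 6.77% of genes were called lower. That fall was called without 1 library for only 6 of 16, and its adjusted p ran from 0.00132 (DESeq2) to 0.173 (limma-voom). Both comparisons share the 72 h control libraries. These had 10724 and 11665 genes detected and 8.44% and 11.8% mitochondrial counts, against 13996 and 12000 genes and 4.37% and 5.73% with IL-21. The NK cell markers summed to 11740 and 9577 RPKM in these controls against 15630 and 16010 with IL-21. Most of this sum was Nkg7, at 9780 and 7393 against 13860 and 14490 RPKM. The 6 T cell markers summed to 116 and 31.2 against 183 and 170.2 RPKM, with Cd8a at 0 in both controls and Cd3e at 0 in both IL-21 libraries. The part of these differences between libraries in the Socs1 result was not tested. Over its alternatives the adjusted p of the 72 h rise ran from 0.000479 (DESeq2) to 0.180 (limma-voom), and the call was kept without 1 library only for 5 of 16, namely both 0 h libraries and both 6 h libraries without IL-21 and the second 72 h library with IL-21 (adjusted p = 0.0218 to 0.126 over the 16). The change of the IL-21 effect on Socs1 from 24 h to 72 h was 2.48 ± 0.87 (adjusted p = 0.208 in edgeR).

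Socs3, the SOCS protein best known for binding the gp130 receptor chain and a classical STAT3 target, was almost silent in the time course. At 6 h it had 0.317 and 0.0729 RPKM without IL-21, from 56 and 14 counts, and 0.743 and 0.897 RPKM with it, from 132 and 90 counts. Both IL-21 libraries were higher, but the log2 difference of 2.102 ± 2.41 did not pass the test (adjusted p = 1.00 with filterByExpr and edgeR). At 24 h and 72 h no library exceeded 0.245 RPKM, and each control group had a library at 0.

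Socs2, a regulator of growth hormone signalling, was lower with IL-21 without passing the test. At 6 h it had 2.68 and 2.39 RPKM without IL-21 and 1.34 and 1.23 RPKM with it, and at 24 h 2.90 and 1.79 against 1.63 and 1.04 RPKM. The groups did not overlap, and the log2 differences were −0.99 ± 1.36 and −0.93 ± 1.36 (both adjusted p = 1.00 with filterByExpr and edgeR). Its 72 h libraries read 0.834 and 1.60 RPKM without and 1.43 and 0 RPKM with IL-21. Without the first 72 h IL-21 library, when the library at 0 stands alone for its group, Socs2 was called lower by edgeR with filterByExpr at 72 h (adjusted p = 0.000581), in the mean effect (0.000909) and in the changes of the effect from 6 h (0.00211) and 24 h (0.00197) to 72 h. No such call was made with all libraries. Cish had 3.32 and 1.58 RPKM at 6 h without IL-21 and 2.20 and 3.66 RPKM with it, and 0.0327 and 1.21 against 2.26 and 0.0218 RPKM at 72 h. Its groups overlapped at 6, 24 and 72 h.

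By this count 3 of 7 members (Socs3, Pim1 and Pim2) had both IL-21 libraries above both controls at 6 h, where 20.5% of the 14879 genes did, and 1 (Socs2) had both below, where 20.9% did. At 24 h 2 members (Pim1 and Pim2) were above, against 29.3% of genes, and Socs2 was below, against 17.4%. At 72 h only Socs1 was separated, above, against 19.0% of genes above and 9.93% below. At 0 h 2 members had both libraries labelled IL-21 above both others, against 17.1% of genes. The median log2 difference of the 7 members with filterByExpr was 0.91 at 6 h, 0.12 at 24 h and −0.88 at 72 h, where that of all genes was 0, 0.03 and 0.01. In none of the tests of a change in the IL-21 effect between times was a member called by edgeR with all libraries.

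**Figure D2:**
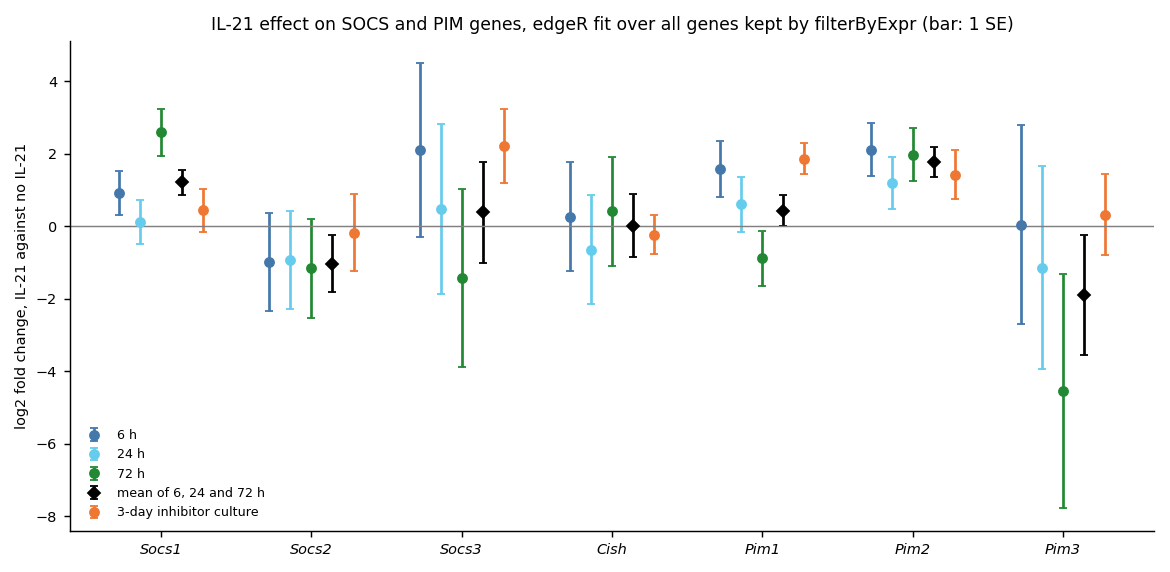
Log2 fold change of IL-21 against no IL-21 for each gene, with bars of ±1 SE from the filterByExpr fit, at 6, 24 and 72 h, as the mean of these times, and in the inhibitor culture. Pim2 lies above 0 at every time with a mean of 1.77, Socs1 reaches 2.60 at 72 h, and the bars of Socs3 and Cish cross 0 at 6, 24 and 72 h.

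In the inhibitor culture, Pim1 was the only member whose libraries with IL-21 lay clear of those without, and the libraries with Stattic held less Socs1 and Cish. None of these differences passed the main test. Pim1 had 9.06 and 7.39 RPKM without IL-21, 29.1 and 21.1 RPKM with IL-21 and 13.4 and 9.79 RPKM with IL-21 and Stattic. The 3 groups did not overlap. Its log2 difference with IL-21 was 1.81 ± 0.43 (adjusted p = 0.141 in edgeR), while DESeq2 called it (1.83, adjusted p = 0.00198). Pim1 passed the RPKM filter here only through the IL-21 group, and with filterByExpr its adjusted p was 0.485 in edgeR, 0.0132 in DESeq2 and 0.503 in limma-voom. With Stattic against IL-21 alone it differed by −1.03 ± 0.42 (adjusted p = 0.236 in edgeR). Pim2 had 101 and 196 RPKM without IL-21, 153 and 533 RPKM with it and 471 and 157 RPKM with Stattic, and every pair of groups overlapped. Its log2 difference with IL-21 was 1.36 ± 0.68 (adjusted p = 0.650 in edgeR), and 0.28 without the second IL-21 library. Pim3 stood at 2.01 and 4.84, 0.642 and 6.88, and 7.28 and 3.53 RPKM in the same order of groups.

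Socs1 had 27.98 and 43.4 RPKM without IL-21, 20.9 and 62.8 RPKM with IL-21, and 9.93 and 3.66 RPKM with Stattic. Both Stattic libraries lay below the other 4. The log2 difference was −2.50 ± 0.65 against IL-21 (adjusted p = 0.0986 in edgeR, 0.0019 in DESeq2) and −2.11 ± 0.65 against no IL-21 (adjusted p = 0.109 in edgeR). Over its alternatives the first ran from −3.36 to −1.57, being −1.57 without the second IL-21 library (adjusted p = 0.284), and the second from −2.94 to −1.52, and edgeR called neither with any 1 library left out. Cish was also lowest in both Stattic libraries, with 11.8 and 18.1, 6.48 and 15.5, and 6.10 and 2.35 RPKM. Its differences were −1.26 ± 0.58 against IL-21 (adjusted p = 0.288 in edgeR) and −1.54 ± 0.59 against no IL-21 (adjusted p = 0.179). Cish passed the RPKM filter here only through the group without IL-21, where it is high, and with filterByExpr the values were −1.27 (adjusted p = 0.405) and −1.50 (adjusted p = 0.301). Over all alternatives they ran from −2.07 to −0.57 and from −2.32 to −0.97, the weakest without the second IL-21 library and without the second Stattic library. Socs3 had 1.44 and 6.66, 4.51 and 28.2, and 2.19 and 3.76 RPKM, so its second IL-21 library alone was high. The log2 difference of Socs3 with IL-21 was 2.23 ± 1.02 with filterByExpr (adjusted p = 0.986 in edgeR). Socs2 stood at 2.09 and 1.92, 1.07 and 2.00, and 3.94 and 0.263 RPKM, and its groups overlapped. The comparisons with Stattic share the IL-21 or the control libraries with each other and with the IL-21 comparison, so they are not independent.

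Counting libraries, 1 member (Pim1) was separated upward with IL-21, against 10.3% of 13647 genes, and 4 members (Socs1, Socs3, Cish and Pim1) downward with Stattic against IL-21, against 27.3%. With Stattic against no IL-21, 2 members (Socs1 and Cish) were separated downward, against 34.7% of genes, and 1 (Pim1) upward, against 11.5%. edgeR called none of the 4 members tested in any of these comparisons, where 0.289% of 4158 genes were called higher with IL-21 and none lower, 1.80% higher and 1.15% lower with Stattic against IL-21, and 2.93% higher and 1.80% lower with Stattic against no IL-21. At an unadjusted p under 0.05 the main test had 1 member (Pim1) with IL-21, 2 (Socs1 and Pim1) with Stattic against IL-21 and 2 (Socs1 and Cish) against no IL-21, where Pim1 and Cish each passed the filter only through the group in which they are highest, and DESeq2 called 1 member in each comparison: Pim1, Socs1 and Socs1. The shares of all genes at that unadjusted threshold and in DESeq2 are not given here, so these counts are not read as a result about the members.

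The Stattic libraries stood apart in other genes. The stress and dissociation list summed to 2391 and 2638 RPKM with Stattic, 168 and 216 RPKM with IL-21 and 136 RPKM in both control libraries. Among its genes that passed the RPKM filter in every group, the co-chaperone Dnajb1 (4.08 ± 0.47, adjusted p = 0.00878 in edgeR) and the chaperone Hsp90aa1 (3.69 ± 0.51, adjusted p = 0.0154) were called higher against IL-21. The heat shock genes Hspa1a (187 and 156 RPKM with Stattic) and Hspa1b (599 and 430 RPKM) reached at most 2.30 RPKM in the other groups and passed the filter only through Stattic, so their calls are not used. With filterByExpr none of 11 was called, and their median log2 difference was 3.12. The 7 NK cell markers summed to 2672 and 3111 RPKM with Stattic, against 6527 and 4985 with IL-21 and 6831 and 5409 without. Most of this sum was Nkg7, at 2161 and 2536 RPKM with Stattic against 5874 and 4288 with IL-21. Ncr1 was lower too, at 46.8 and 77.3 against 146 and 156 RPKM, as was Klrb1c, at 118 and 121 against 134 and 154 RPKM. Without IL-21, Ncr1 had 473 and 358 RPKM and Klrb1c 552 and 509 RPKM, so both were already lower with IL-21 alone. The libraries of Klrk1, Itga1, Eomes and Tbx21 overlapped between Stattic and IL-21 alone. In bulk RNA, fewer cells of a type and less RNA per cell cannot be told apart. The part of these shifts in the lower Socs1 and Cish levels was not tested.

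**Figure D3:**
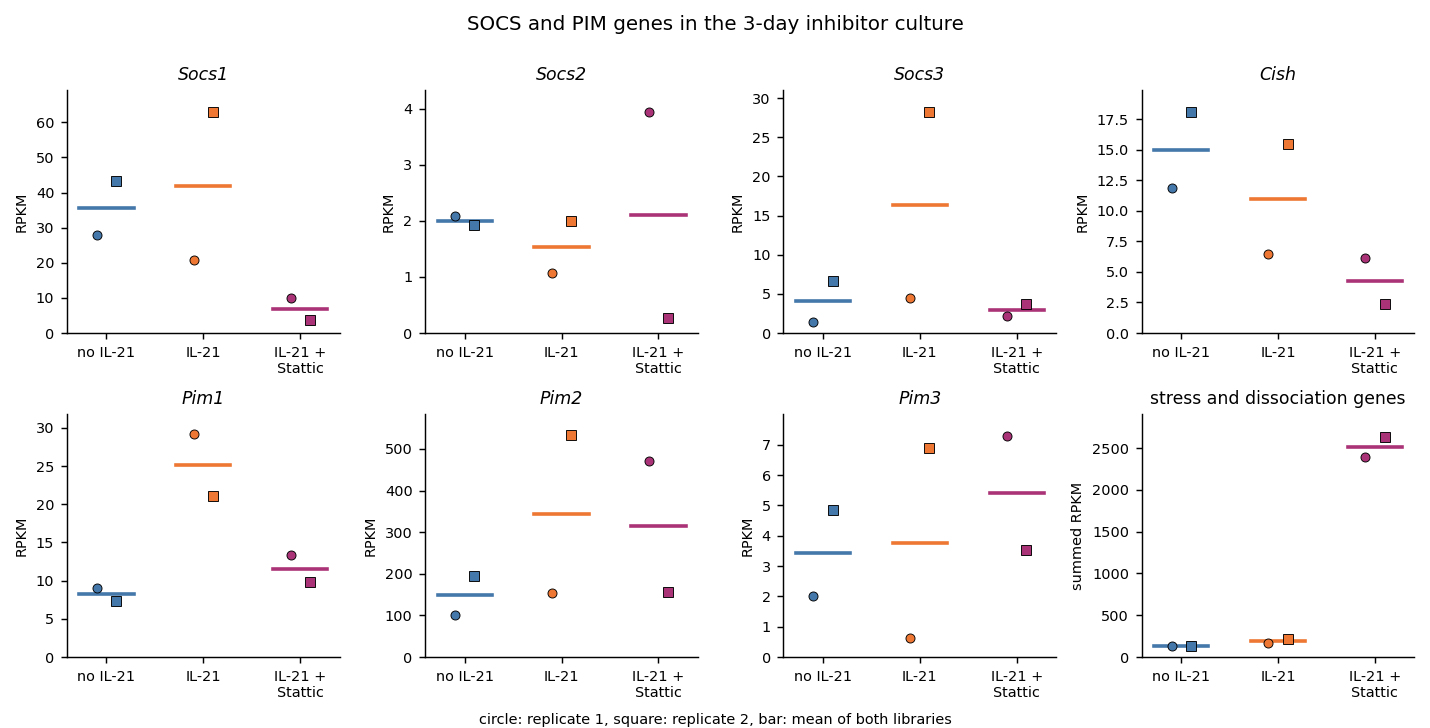
RPKM of the 7 genes, and the summed RPKM of the stress and dissociation list, in the inhibitor culture with no IL-21, IL-21, or IL-21 plus Stattic; points are libraries and bars are means. Pim1 is highest with IL-21 (29.1 and 21.1), Socs1 lowest with Stattic (9.93 and 3.66), and the stress list reaches 2391 and 2638 with Stattic.

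The cultures can be set side by side at 72 h, although the labels name another library kit for the time course than the methods do. The log2 difference between the IL-21 effect on Pim1 in the time course and in the inhibitor culture was −2.72 ± 0.93 (adjusted p = 0.135 in edgeR), and DESeq2 called it (adjusted p = 0.0361). Pim1 passed the RPKM filter of both cultures only through the IL-21 group of the inhibitor culture, where it is highest, and with filterByExpr the value was −2.73 (adjusted p = 0.195 in edgeR, 0.0218 in DESeq2). Leaving out the first 72 h control library of the time course brought it to −3.25 (adjusted p = 0.0188). For no other member was this difference called by either tool.

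Across the gates at gd8.5, Pim2 and Socs1 were lower in CB_hi than in CB_low, and Socs2 was the member that was higher. Pim2 had 76.8 and 104 RPKM in CB_low, 55.1 and 32.8 in CB_int and 17.0 and 13.2 in CB_hi, with no overlap between any of the groups. It fell by 2.57 on the log2 scale from CB_low to CB_hi (SE 0.30, adjusted p = 0.00377 in edgeR), and this call held in all 18 alternatives (adjusted p = 4.31e-19 to 0.0299). The steps from CB_low to CB_int (−1.03 ± 0.29, adjusted p = 0.148) and from CB_int to CB_hi (−1.54 ± 0.29, adjusted p = 0.0584) did not pass the test.

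Socs1 had 41.8 and 26.0 RPKM in CB_low, 29.7 and 19.1 in CB_int and 15.3 and 9.83 in CB_hi, and the CB_hi libraries lay below all others. It fell by 1.43 from CB_low to CB_hi (SE 0.36, adjusted p = 0.0248 in edgeR). With filterByExpr the value was −1.25 (adjusted p = 0.0751), without the first CB_low library −1.06 (adjusted p = 0.101) and without the second CB_hi library −1.14 (adjusted p = 0.135). Socs2 had 1.67 and 1.30 RPKM in CB_low, 2.33 and 2.96 in CB_int and 3.33 and 4.65 in CB_hi, a stepwise order without overlap. It rose by 1.62 ± 0.35 from CB_low to CB_hi with filterByExpr (adjusted p = 0.0426 in edgeR), the direction opposite to that of Socs1 and Pim2, and limma-voom put it at 1.57 (adjusted p = 0.0582).

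Socs3 had 19.1 and 11.3 RPKM in CB_low, 14.7 and 4.03 in CB_int and 4.11 and 0.408 in CB_hi. Its difference of −2.73 ± 1.04 missed the threshold (adjusted p = 0.0805 in edgeR) and was called by DESeq2 (adjusted p = 0.0106) and limma-voom (adjusted p = 0.0434), and without the first CB_hi library it was −5.18 (adjusted p = 0.0254). Socs3 passed the RPKM filter only through CB_low, where it is high, and with filterByExpr its adjusted p was 0.167 in edgeR, 0.161 in limma-voom and 0.0347 in DESeq2. Cish was highest in the middle gate, with 10.9 and 10.9 RPKM in CB_low, 16.8 and 14.5 in CB_int and 8.498 and 7.33 in CB_hi. Its groups did not overlap, and the step from CB_int to CB_hi was −0.99 ± 0.19 (adjusted p = 0.06004 in edgeR). Pim1 had 13.3 and 27.8, 8.65 and 14.5, and 12.2 and 8.95 RPKM, and Pim3 had 17.1 and 30.9, 22.8 and 20.0, and 16.2 and 15.5 RPKM. Neither was called, and Pim1 passed the RPKM filter only through CB_low, where it is highest.

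Of the 6 members tested between CB_hi and CB_low, 2 were called lower and none higher, where 13.1% of 4683 genes were called lower and 8.05% higher. With filterByExpr 1 of 7 was called lower and 1 higher, against 3.40% and 3.35% of 14335 genes. All libraries of CB_hi lay below those of CB_low for 6 of 7 members, as they did for 35.4% of genes, and above for 1, as for 24.5%. Those of CB_int lay above CB_low for 2 members (Socs2 and Cish), as for 17.9% of genes, and below for 1 (Pim2), as for 24.9%. Those of CB_hi lay below CB_int for 4 members (Socs1, Cish, Pim2 and Pim3), as for 27.5%, and above for 1 (Socs2), as for 20.3%. No member was called between CB_int and CB_low (0.256% of genes higher, 0.0641% lower) or between CB_hi and CB_int (0.342% higher, 1.41% lower). At an unadjusted p under 0.05 the main test had 2 members (Cish and Pim2) and 3 members (Socs1, Cish and Pim2), respectively, and DESeq2 called Pim2 in both. Those counts stand without the share of all genes at the unadjusted threshold or in DESeq2, so they are not read as an excess among the members.

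The stress and dissociation list moved with the gates too, at 1259 and 2762 RPKM in CB_low, 741 and 814 in CB_int and 528 and 370 in CB_hi, with 8 of its 10 genes tested called lower in CB_hi, and 3 of 12 with filterByExpr. The 7 NK cell markers summed to 8949 and 8179 RPKM in CB_low and 4802 and 3715 in CB_hi. A list of 6 macrophage markers summed to 23.7 and 277 RPKM in CB_low, 230 and 317 in CB_int and 3.98 and 5.16 in CB_hi, where Csf1r was at 0 in both libraries. A list of 6 T cell markers, of which Cd8a was at 0 in every gate, stepped down as well, with 165 and 161 RPKM in CB_low, 58.7 and 88.8 in CB_int and 31.9 and 27.96 in CB_hi, where Cd3e and Cd4 were at 0 too. The 5 stromal markers summed to 45.0 and 4.60 RPKM in CB_low, 4.39 and 1.99 in CB_int and 0.411 and 0.688 in CB_hi. The epithelial sum was 10.3 and 6.54, 24.6 and 18.9, and 53.4 and 58.0 RPKM in the same order, and the endothelial sum 20.96 and 19.6, 26.3 and 34.0, and 46.1 and 49.9 RPKM. In each of these lists only 1 of 3 genes exceeded 1 RPKM in both libraries of a gate. Krt8 was at 0 in every gate and Krt18 in CB_hi, Cdh5 was at 0 in CB_low and CB_int, and Kdr in CB_int. The part of these lists in the fall of Pim2 and Socs1 and the rise of Socs2 was not tested.

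**Figure D4:**
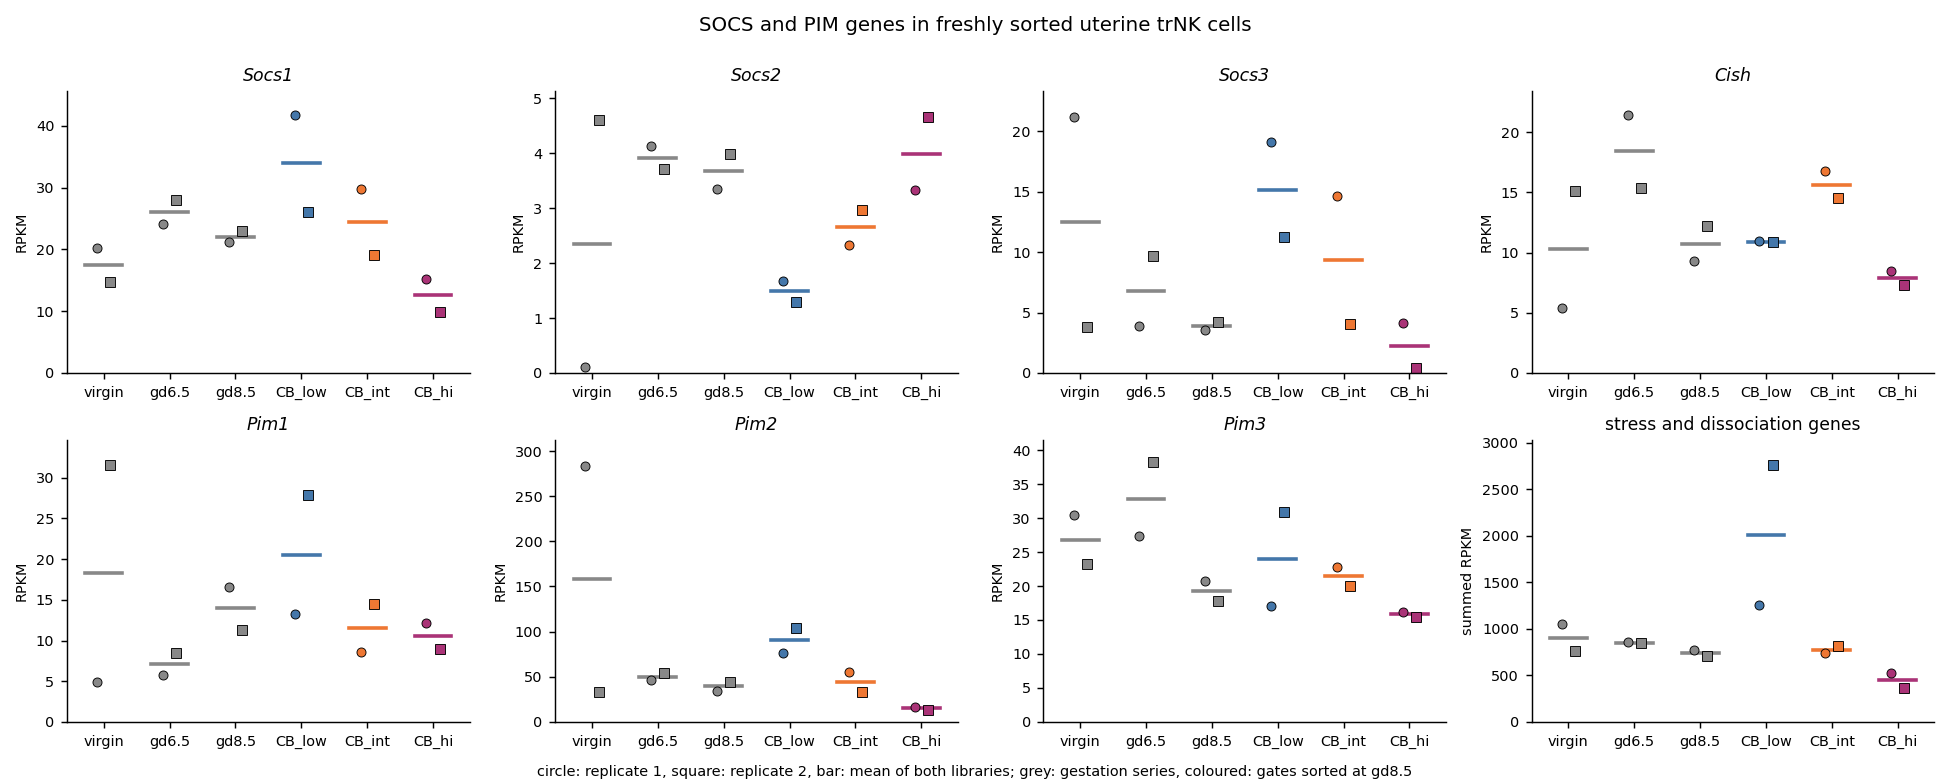
RPKM of the 7 genes, and the summed RPKM of the stress and dissociation list, in sorted cells: virgin, gd6.5 and gd8.5 trNK cells in grey and the CB_low, CB_int and CB_hi gates in colour; points are libraries and bars are means. Pim2 and Socs1 step down and Socs2 steps up from CB_low to CB_hi, and the first virgin library of Pim2 (283) stands far above the second (33.6).

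During gestation no member was called in the main test, and the pair of virgin libraries were unlike each other. Pim2 had 283 and 33.6 RPKM in virgin mice, 46.4 and 54.0 RPKM at gd6.5, and later, at gd8.5, 34.5 and 44.8 RPKM. Pim1 had 4.94 and 31.6 RPKM in virgin mice, 5.72 and 8.45 RPKM at gd6.5, and later 16.6 and 11.3 RPKM. Socs3 had 21.2 and 3.77, 3.86 and 9.70, and 3.54 and 4.23 RPKM, and Socs2 0.101 and 4.61, 4.13 and 3.72, and 3.35 and 3.99 RPKM. In each of these the virgin libraries differed more than any other pair. The first virgin file was counted on another annotation, of 55573 against 54446 genes, with an exonic length of Pim1 that differs from that of the other files, and these libraries also stood apart in other genes. The T cell list summed to 274 and 47.1 RPKM in them, with Cd3e, Cd4 and Cd8a at 0 in both. The 5 erythroid markers summed to 12.8 and 224 RPKM, against at most 0.301 at gd6.5 and 0.252 and 844 RPKM at gd8.5, and the NK cell transcription factor gene Tbx21 had 4.75 and 39.8 RPKM. The part of annotation and markers in these values was not tested.

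The log2 difference from virgin to gd6.5 was −1.75 ± 0.84 for Pim2 (adjusted p = 0.201 in edgeR) and −1.45 ± 0.78 for Pim1 (adjusted p = 0.244), and to gd8.5 −2.06 ± 0.85 for Pim2 (adjusted p = 0.347). Both turned with the virgin library used. Without the first, Pim2 changed by 0.50 at gd6.5 (adjusted p = 0.135) and 0.17 at gd8.5 (adjusted p = 0.739), and Pim1 by −2.24 at gd6.5 (adjusted p = 0.0135). Without the second, Pim2 changed by −2.58 (adjusted p = 0.000666) and −2.90 (adjusted p = 0.000584), Pim1 by 0.43 (adjusted p = 0.421) and 1.43 (adjusted p = 0.0482), and Cish at gd6.5 by 1.68 (adjusted p = 0.00778), all in edgeR. Each of these fits without a virgin library leaves the virgin group with 1 library, so that the p-values take its spread from the other groups. Pim1 passed the RPKM filter only through gd8.5 and Cish only through gd6.5, with all libraries and without the second virgin library, and filterByExpr was not run without a virgin library.

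Socs1 had steadier libraries, with 20.2 and 14.7 RPKM in virgin mice, 24.0 and 27.99 RPKM at gd6.5, and later 21.1 and 23.0 RPKM. The groups did not overlap, but the difference at gd6.5 of 0.49 ± 0.23 did not pass the test (adjusted p = 0.191 in edgeR). Cish had 5.41 and 15.1, 21.5 and 15.4, and 9.33 and 12.2 RPKM. Pim3 had 30.5 and 23.2, 27.4 and 38.3, and 20.7 and 17.8 RPKM, and was lower at gd8.5 than at gd6.5 by −0.75 ± 0.25 (adjusted p = 0.151 in edgeR). Both gd6.5 libraries lay above both virgin libraries for 2 members (Socs1 and Cish), as for 27.0% of the 14040 genes of filterByExpr. At gd8.5 against virgin 1 member (Socs1) lay above, as did 21.2% of genes, and 1 (Pim3) below, as did 17.9%. At gd8.5 against gd6.5 4 members (Socs1, Cish, Pim2 and Pim3) lay below, as did 27.6%, and 1 (Pim1) above, as did 23.5%. None of the 5 members tested was called, while 3.17% of 4504 genes were called higher and 3.00% lower at gd6.5, 0.0222% and 0.400% at gd8.5 against virgin, and 0 in either direction at gd8.5 against gd6.5. At an unadjusted p under 0.05 the main test had no member at gd6.5, Pim2 at gd8.5 and Pim3 between gd8.5 and gd6.5, and DESeq2 and limma-voom also called none. No share of all genes at the unadjusted threshold is given beside these, so they are not read as a result about the members.

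By mean RPKM, Pim2 was the highest member in every group except CB_hi, where Pim3 had 16.2 and 15.5 RPKM against 17.0 and 13.2 for Pim2. Cish had 5.41 to 21.5 RPKM in the freshly sorted cells, 2.35 to 18.1 RPKM in the inhibitor culture and 0.0218 to 3.66 RPKM in the time course. Pim3 had 15.5 to 38.3, 0.642 to 7.28 and 0 to 0.995 RPKM in the same order. In the time course at 0 h without IL-21, Cish had 1.58 and 0.471 RPKM and Pim3 0 and 0.245 RPKM. Levels set across experiments are a description, since sorting differed and library kits may have.

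Other genes of the pathway were counted from lists. Of 20 other STAT-responsive genes, 11 were tested in the time course. At 6 h 2 were called higher, Gzmb and Icos, and 1 lower, Bcl2, where 0.599% of all genes tested were called higher and 1.37% lower. With filterByExpr, which kept all 20, only Bcl2 was called at 6 h, none at 24 h and only Gzmb at 72 h. For the mean of these times it called 4 of the 20 higher and 1 lower, where 2.20% and 0.585% of all genes were. Among the 4 is Il10, which only libraries with IL-21 could bring past the filter, so its call is not used. Granzyme B (Gzmb) had 3632 and 2653 RPKM without and 10870 and 12240 RPKM with IL-21, a rise of 1.85 ± 0.36 (adjusted p = 0.0235 in edgeR). The costimulatory receptor gene Icos rose by 1.45 ± 0.18 (adjusted p = 0.00362). The survival gene Bcl2 fell from 12.8 and 14.4 to 4.46 and 4.33 RPKM (−1.67 ± 0.18, adjusted p = 0.00169). At 24 h Gzmb was called higher (1.94) and Bcl2 lower (−1.10), and at 72 h Gzmb was called higher (1.94). Bcl3, a nuclear IκB family member, passed the RPKM filter only through the 6 h libraries with IL-21, so its call at 72 h is not used. It was at 0.0424 and 0 RPKM in the 72 h controls and at 9.31 and 2.05 RPKM with IL-21.

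In the inhibitor culture Gzmb was called higher with IL-21, by 3.70 ± 0.35 (adjusted p = 0.0136 in edgeR). With filterByExpr none of the 20 genes was called with IL-21 or with Stattic, as no gene at all was called with IL-21. Bcl3 passed the RPKM filter only through the IL-21 group, so its call is not used. It had 4.13 and 2.91 RPKM without IL-21, 24.3 and 36.4 RPKM with it and 8.67 and 9.32 RPKM with Stattic. Il10, named after its values were seen, was listed at 0 in both controls, at 105 and 78.98 RPKM with IL-21 and at 0 and 1.36 RPKM with Stattic. It could pass the RPKM filter only through the IL-21 group. The main test called Il10 neither with IL-21 nor with Stattic against IL-21. With Stattic against IL-21, the cyclin gene Ccnd2 was called lower (−1.81 ± 0.35, adjusted p = 0.0429), and Cdkn1a, the cell cycle inhibitor p21, was called higher from a list of 12 PIM substrates and translation genes (1.57 ± 0.31, adjusted p = 0.0441). Neither was called with filterByExpr.

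Most receptors, kinases and other brakes fell below the RPKM filter in the time course. Of 13 receptors and JAK kinases 3 were tested in the time course, and the common gamma chain Il2rg was called higher at 72 h (1.20 ± 0.28, adjusted p = 0.0233 in edgeR), as were 6.57% of all genes tested. Of 21 other brakes 5 were tested, and Spry2, an inhibitor of receptor tyrosine kinase signalling, was called higher at 72 h (1.24 ± 0.30, adjusted p = 0.0259). With filterByExpr these were the only calls among the 13 and 20 genes kept. The 1 STAT factor tested was called at no time. Between CB_hi and CB_low, 4 of 7 receptors and kinases, 1 of 3 STAT factors and 3 of 8 other brakes were called lower and none higher, and of the 14 STAT-responsive genes 3 were called higher and 6 lower, where 13.1% of all genes tested were called lower and 8.05% higher. With filterByExpr 4 of 12, 1 of 7 and 1 of 21 were called lower, and of 19 STAT-responsive genes 3 higher and 5 lower. Of all 14335 genes kept by that filter, 3.40% were called lower and 3.35% higher. Il4ra, 1 of the 4 receptors and kinases of the main test, passed the RPKM filter only through CB_low. Among the genes called lower, named after their values were seen, were the IL-21 receptor Il21r (−2.31 ± 0.37, adjusted p = 0.00698) and Stat4 (−2.35 ± 0.22, adjusted p = 0.00187). Tnfrsf9 is in the last list and encodes 4-1BB, which was used to sort, so its rise is no finding.

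Genes whose pattern was most like each member were found by Pearson's r of log2(RPKM + 1) over the 34 libraries, centred within each experiment, among 2668 genes. These values describe libraries that share groups and depth. The closest genes were Susd3 (r = 0.874), Pglyrp2 (0.860) and Sla2 (0.835) for Socs1, and Jaml (0.843), Stk17b (0.768) and Efhd2 (0.756) for Pim2. Those for Cish were Rgs19 (0.769), Socs1 (0.760) and Ppm1g (0.758). The highest value was 0.767 for Socs2 (Gpr141), 0.671 for Socs3 (Klrc1), 0.660 for Pim3 (Mkrn1) and 0.608 for Pim1 (Nfkbia), the lowest of the 7. Over the 22 culture libraries alone the closest genes of Socs1, Cish, Pim2 and Pim3 were again Susd3 (0.902), Rgs19 (0.852), Jaml (0.850) and Mkrn1 (0.693), and those of Socs2, Socs3 and Pim1 were other genes (Tusc3, Fgl2 and Vmp1).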

How the data were processed

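Gene expression was measured by bulk RNA-Seq in 34 libraries. For each library the authors deposited raw counts, whole numbers of reads for each gene, beside its exons and length on mm10, without normalization. The processing notes name HISAT2 2.1.0 and featureCounts from Subread, and the methods name HISAT2 and RSEM. The methods give a minimum RPKM of 10 and limma for comparisons. Samples were grouped by the labels. RPKM were computed over the 54353 genes shared by all libraries, with 1 gene length for all, and these genes held 99.9% or more (rounded) of each library's counts.

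In each experiment 1 edgeR 4.0.16 quasi-likelihood fit (R 4.3.3) covered all groups without covariates. The SE of a log2 fold change was its size over the root of F. The common biological coefficient of variation was 0.248 to 0.414 with the RPKM filter and 0.544 to 0.909 with filterByExpr. In the joint fit of both cultures it was 0.467 with the RPKM filter. Alternatives were limma-voom 3.58.1, DESeq2 1.42.0, DESeq2's size factors, filterByExpr, no filter, no fold threshold, a replicate block, only the 2 groups compared, and leaving out each library. Combinations with filterByExpr other than filterByExpr alone, leaving out the 72 h libraries and adding the inhibitor culture to the mean effect were chosen after seeing the data. The fit was tested on simulated data with the RPKM filter only, which does not cover the filterByExpr fits.

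The 7 genes and the other gene lists were chosen with earlier results of these data known. All 7 are named throughout. Of the other lists, at most the 4 called genes with the largest fold are named in each IL-21 or Stattic comparison, and the 3 genes most correlated with a member. Single cells and chromatin accessibility were not analysed here.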

Additional observations from a re-analysis of the deposited data

How the results depend on the processing

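These results rest on 2 libraries per group, and few reads were counted for Pim3 and Socs3 in the time course. Of the results for single genes under alternatives, 863 were unchanged, 54 lost and 50 gained a call, and 12 changed sign. Unchanged means the same direction and side of the threshold for a fold change, and the same closest gene for a correlation. Another 103 pairs of a member and a comparison were called under no setting, and 136 of their 2080 values had the other sign. The cause of these changes was not tested.

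The number of members called moved as follows. With DESeq2 it was 1 for CB_int against CB_low, CB_hi against CB_int, IL-21 and both Stattic comparisons of the inhibitor culture, IL-21 at 72 h, and the time course minus the inhibitor culture, where the main test gave 0. It was 3 for CB_hi against CB_low with DESeq2 and with limma-voom (main test 2). With filterByExpr it was 1 for IL-21 at 72 h and for 72 h against 24 h without IL-21 (main test 0), also with size factors. With filterByExpr and DESeq2 it was 4 for CB_hi against CB_low (main test 2), 2 for IL-21 at 72 h, for the mean effect and for 72 h against 24 h, and 1 for CB_hi against CB_int, the 3 comparisons of the inhibitor culture, the time course minus the inhibitor culture and the IL-21 effect at 72 h minus 24 h. With filterByExpr and limma-voom it was 1 for CB_hi against CB_low. Without a filter it was 2 for both gestation days against virgin, CB_hi against CB_int, Stattic against no IL-21 and IL-21 at 72 h, 4 for CB_hi against CB_low, and 1 for Stattic against IL-21 and IL-21 at 6 h. With only the compared groups in the fit it was 1 at 6 h and 1 at 24 h. Leaving out 1 library gave 0 to 2 members at gd6.5 and gd8.5, 1 to 3 for CB_hi against CB_low, 0 to 1 for IL-21 at 72 h, the mean effect and the time course minus the inhibitor culture, and with filterByExpr 0 to 2 for the mean effect and 0 to 1 for IL-21 at 72 h, for 72 h against 24 h and for the IL-21 effect at 72 h minus 6 h and minus 24 h. Filter and library were not varied together for the sorted cells. No share of all genes called stands beside these counts or that of the replicate block below. They are not read as a result about the members.

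The sign changed for Pim1 at gd8.5 with limma-voom (0.16, and 0.29 with filterByExpr), and without 1 library for Pim1 (−2.24 to 0.43 at gd6.5, −1.25 to 1.43 at gd8.5), Pim2 (−2.58 to 0.50 and −2.90 to 0.17) and the Socs2 effect of 72 h minus 6 h (0.54 and 0.87 without the second 72 h library of either arm) and minus 24 h (0.066 and 0.039 without a 24 h library, 0.48 and 0.81 without a 72 h library), where the values with all libraries were −0.17 and −0.23. Without the first 72 h IL-21 library both Socs2 effects were called lower (adjusted p = 0.00211 and 0.00197), from a lone library at 0 counts. The highest correlation moved to 0.732 for Socs2, 0.656 for Socs3 and 0.761 for Pim1 over culture libraries alone.

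Same-numbered libraries did not pair in every experiment, with correlations of deviations of −0.295 to 0.104 in gestation, 0.01 to 0.399 in the gates, −0.509 to 0.598 in the inhibitor culture and −0.392 to 0.477 in the time course. The 0.598 was between the control and IL-21 groups of the inhibitor culture, which had −0.456 and −0.509 with the Stattic group. In both of those groups the second library was higher for Socs1, Socs3, Cish, Pim2 and Pim3. The main test and the overlap of groups do not use this. With the replicate number as a block, the Pim2 mean effect was 1.78 (adjusted p = 0.0348 in edgeR), and with filterByExpr it was 1.77 (adjusted p = 0.0650), so that 0 members were called, and 1 member was called for CB_hi against CB_int. The block also called Socs3 between CB_hi and CB_low with the RPKM filter (adjusted p = 0.0117 in edgeR). Socs3 passed that filter only through CB_low, where it is high, so this call is not used. With filterByExpr the block ended the calls of Socs1 at 72 h (adjusted p = 0.0622), of its fall from 24 h to 72 h (0.0575) and of Socs2 between CB_hi and CB_low (0.0599).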

Other observations

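In the time course Pim2 and the STAT-responsive genes Bcl3 and Il10 had both IL-21 libraries above both controls at 6 h, as 20.5% of genes did, and edgeR called none of them at 6 h with either filter. For the mean of 6, 24 and 72 h it called Pim2 (adjusted p = 0.0412) and Bcl3 (0.00608) higher with filterByExpr. It also called Il10, but only libraries with IL-21 could bring Il10 past the filter, so that call is not used. Il10, which encodes an anti-inflammatory cytokine, had 18.0 and 22.01 RPKM with IL-21 at 6 h, 2.29 and 1.17 RPKM at 24 h and 1.06 and 0 RPKM at 72 h, and no library without IL-21 exceeded 0.0230 RPKM. Bcl3 had 11.9 and 23.6 RPKM with IL-21 at 6 h, 4.69 and 3.07 RPKM at 24 h and 9.31 and 2.05 RPKM at 72 h. Without IL-21 it had 0.231 and 0.499 RPKM at 6 h and at most 0.0424 RPKM at 24 h and 72 h. These genes were named after their values were seen, and their levels between the times were not tested.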
